A study of Mus musculus with 9 samples.

Results

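Peaks of the transcription factor Ets1, of H3K27ac and of open chromatin were followed at 10 nuclear receptor genes of fat: Ppara, Ppard, Nr1h3, Esrra, Esrrg, Thra, Thrb, Nr3c1, Nr4a1 and Nr2f2. They are named genes, chosen by symbol and not by a rule on their peaks, though earlier results of these data were known. They stand among 21938 protein-coding genes of the GENCODE M21 annotation (mm10, GRCm38). A promoter peak is one that reaches within 1 kb of any annotated transcript start of the gene. The region of a gene is its body plus 20 kb on each side. The 9 libraries, 1 per group, came from mouse fat.

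For 8 libraries, male mice aged 8 to 10 weeks gave inguinal white fat (iWAT), from which mature adipocytes were taken as the cells that float after collagenase digestion. Ets1 was profiled by CUT&Tag, in which an antibody tethers a DNA-cutting transposase to its target, in C57 wild-type mice kept at room temperature (RT) or held in the cold for 7 days (CS). A further Ets1 library came from beige adipocytes differentiated for 6 days from the stromal vascular cells of male C57BL/6J mice aged 3 to 4 weeks. The first medium of those cultures contained insulin, dexamethasone, T3, rosiglitazone and isobutyl methylxanthine, and the later medium lacked dexamethasone and isobutyl methylxanthine. Dexamethasone, T3 and rosiglitazone are ligands of the glucocorticoid receptor (Nr3c1), of the thyroid hormone receptors (Thra, Thrb) and of PPARγ. H3K27ac, an acetyl mark of active promoters and enhancers, was profiled by CUT&Tag in EA+/+ mice, which are homozygous for an inducible Ets1 transgene at the Hipp11 locus (Ets1 ki/ki) and carry Adipoq-Cre, and in EC+/+ mice, which have the same transgene without Cre. It was also profiled in EAKO mice (Ets1 f/f with Adipoq-Cre) and in their Flox controls (Ets1 f/f without Cre), and ATAC was run on Flox and EAKO. Adipoq-Cre acts in adipocytes, so other cells of the pad keep their Ets1 alleles. With 1 library per group no difference could be tested: counts and ranks carry no p-value, and how far animals of a group vary was not measured.

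Nuclear receptors are transcription factors, many of which are switched by a small ligand such as a fatty acid, a sterol or a hormone. In fat they connect nutrient and hormone signals to lipid storage, fatty acid oxidation and heat production. Most bind DNA with a partner, often a retinoid X receptor, and recruit coactivators that acetylate histones or corepressors that remove the acetyl groups.

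The lists held 4056 (RT), 14858 (CS) and 30553 (beige) Ets1 peaks, between 33713 and 86834 H3K27ac peaks, and 82839 (EAKO) and 88977 (Flox) ATAC peaks. The study's supplement lists read totals, which are close for RT and CS and for Flox and EAKO H3K27ac. The totals are higher in beige than in CS, in EA+/+ than in EC+/+, and in Flox than in EAKO ATAC. The peak lists themselves hold no read totals, and an absent peak means only that none was called. The targeted gene gave no check of the labels: Ets1 had a promoter peak in both knock-out libraries (−log10 q of 26.6 for H3K27ac and 86.8 for ATAC) as in their controls (49.6 and 115), and peak lists do not measure its RNA or protein. The shares of all protein-coding genes with an H3K27ac promoter peak were 63.9% in Flox, 60.5% in EAKO, 52.0% in EC+/+ and 50.4% in EA+/+. Of 12 adipocyte markers, 8 had such a peak in Flox, 9 in EAKO, 8 in EC+/+ and 8 in EA+/+. All 8 stromal progenitor markers had it in Flox and in EAKO, against 5 in EC+/+ and 3 in EA+/+. Endothelial markers had it for 4 of 5 genes in Flox and in EAKO, 2 in EC+/+ and 3 in EA+/+, macrophage markers for 1 or 2 of 6 in each H3K27ac list, and lymphocyte markers for 0 or 1 of 5. Of the adipocyte markers, Adipoq, whose promoter drives Cre in these mice, and the lipid droplet gene Cidec had a promoter peak in none of the 9 lists, ATAC included. The part of other cell types in the values of the receptor genes was not tested.

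Sequences are shown first for the Ets1 peaks whose summit lay within 100 bp of CCGGAAG, a strong form of the ETS recognition sequence, on either strand. Among the Ets1 peaks of the 10 regions it occurred in 0 of 4 RT peaks, 1 of 26 CS peaks (3.85%) and 3 of 42 beige peaks (7.14%), beside 1.53%, 5.73% and 6.06% of all peaks of those lists. The match at a start of a receptor gene itself was that of Nr1h3, at −11 bp from its nearest start, in a peak that also reaches the promoter of Acp2. That start belongs to a transcript annotated as processed and not as protein-coding. The others lay at neighbours, in the body of Def6 upstream of Ppard, at the Fance promoter downstream of Ppard, and as a pair at the Prdx5 and Trmt112 promoter downstream of Esrra. Each line gives 29 bases of GRCm38 on the strand that reads CCGGAAG, with the match in capitals; all of these matches are on the minus strand.
Nr1h3 and Acp2 promoter, beige, chr2:91202831-91202859: aaggacacttgCCGGAAGtgcagccttcg
Prdx5 and Trmt112 promoter beside Esrra, beige, chr19:6909987-6910015: acgtcctggtaCCGGAAGcgtttctcggg
Prdx5 and Trmt112 promoter beside Esrra, second match, beige, chr19:6910071-6910099: tcttcgccggaCCGGAAGtggccgactta
Fance promoter beside Ppard, beige, chr17:28313489-28313517: tcggggcggggCCGGAAGggacgtgatca
Def6 body beside Ppard, CS, chr17:28223664-28223692: tccttcgcggtCCGGAAGcacctacagga
In the promoters of the RefSeq table (GRCm38), short stretches around each start, CCGGAAG was found in 8.86% of 32851 promoters and in none of those of the 8 receptor genes that had an entry. The 2 Nr1h3 promoters of that set held no match, so the Nr1h3 match above lies outside them.

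The Ets1 peaks ranked highest at Nr4a1 and Ppard lacked CCGGAAG near their summits. Their summit sequences are shown because these sites gave the largest Ets1 values of the receptor regions apart from Esrra and the Nr1d1 site beside Thra. Each line gives 81 bases of GRCm38 centred on the beige summit, on the plus strand, which is the strand of both genes. The capitals mark GGAA or its reverse complement TTCC, the core of an ETS site, a search that was chosen after the peaks had been seen. The same 81-base window held that core at 31.3% of RT, 43.5% of CS and 57.3% of beige summits.
Nr4a1, upstream site, chr15:101246266-101246346: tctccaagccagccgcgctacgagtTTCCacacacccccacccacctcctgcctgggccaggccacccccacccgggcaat
Nr4a1, promoter, chr15:101266705-101266785: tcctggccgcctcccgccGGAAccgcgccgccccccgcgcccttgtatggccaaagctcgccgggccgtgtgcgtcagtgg
Ppard, intron, chr17:28257098-28257178: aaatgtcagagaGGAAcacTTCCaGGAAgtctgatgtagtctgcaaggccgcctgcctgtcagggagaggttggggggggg
Ppard, promoter, chr17:28232580-28232660: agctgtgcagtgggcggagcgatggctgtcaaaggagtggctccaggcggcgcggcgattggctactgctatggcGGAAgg
The Ppard intron held 3 copies of the core and the other 3 windows 1 copy each. Matches describe the letters only. A CA repeat of 6 or more copies lay within 100 bp of the summit in 2 of the 26 CS peaks, at Esrrg and beside Thra, and in none of the RT or beige peaks of the regions, beside 18.8% of all RT, 8.26% of all CS and 4.86% of all beige peaks.

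**Figure D1:**
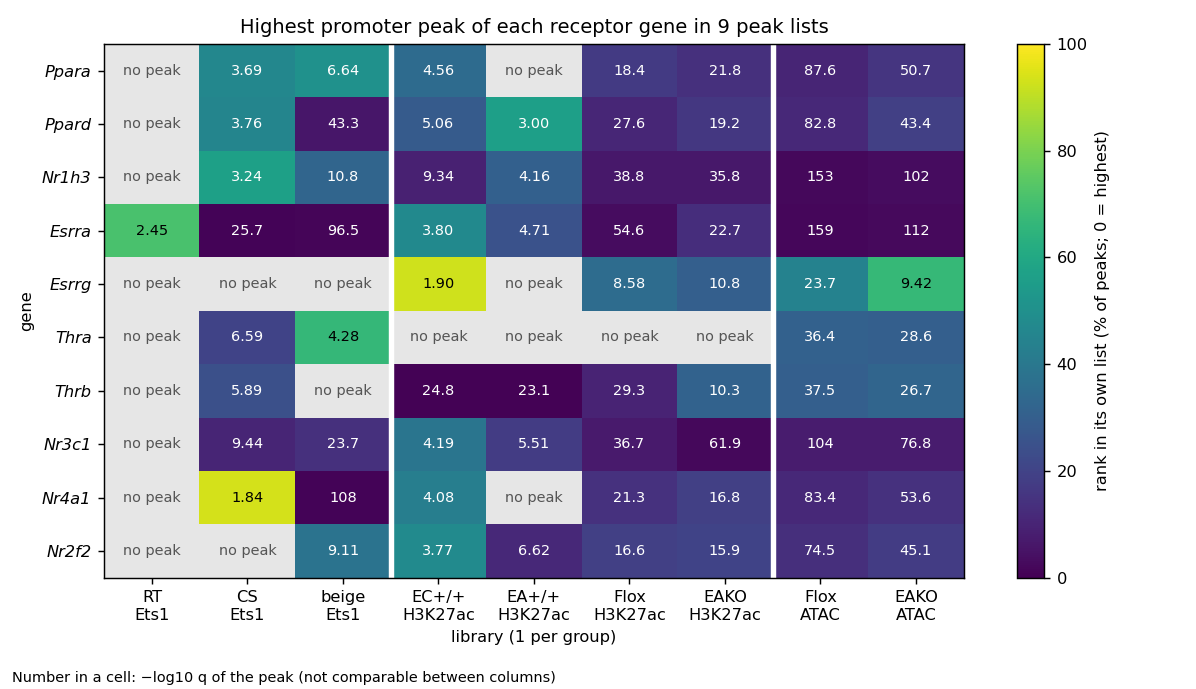
The highest promoter peak of each of the 10 receptor genes (rows) in each of the 9 libraries (columns). Colour gives its rank as a percent of its own list (0 is the highest peak), the number in a cell its −log10 q, and grey cells have no promoter peak. RT Ets1 holds a peak at Esrra alone, and Thra lacks a promoter peak in the 4 H3K27ac columns.

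Ets1 peaks at the receptor promoters were found for 1 of 10 genes in RT and for 8 each in CS and beige cells. The shares of all protein-coding genes were 4.06% in RT, 32.7% in CS and 46.4% in beige. Esrra was the gene with a promoter peak in RT. Esrrg and Nr2f2 had none in CS, and Esrrg and Thrb none in beige cells. Wilson 95% intervals, which cover counting error only, ran from 49.0% to 94.3% for 8 of 10 genes. The receptor genes have between 3 and 9 annotated starts, against a median of 3 over all protein-coding genes, and a gene with more starts has more windows in which a peak can fall.

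Between RT and CS, 7 genes had a promoter peak in CS alone (Ppara, Ppard, Nr1h3, Thra, Thrb, Nr3c1 and Nr4a1), a pattern of 29.1% of all genes. None had it in RT alone (0.428% of all genes), Esrra had it in both, and Esrrg and Nr2f2 in neither. The RT list is much shorter: when CS was cut to its 4056 best peaks, the genes in CS alone fell from 7 to 3, and these were Thra, Thrb and Nr3c1. In the regions, 1 of 4 RT peaks (25.0%) overlapped no CS peak, beside 55.9% of all RT peaks. Of the CS peaks 23 of 26 (88.5%, 71.0 to 96.0%) overlapped no RT peak, beside 88.0% of all CS peaks, so the receptor regions matched the whole list there. Among CS peaks absent from RT the highest was that of the Nr3c1 promoter (−log10 q of 9.44), and the RT peak absent from CS was an intronic peak of Thrb (2.26).

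Between CS and beige cells, 7 genes had a promoter peak in both lists. As a percent of the list, 3 of them ranked higher in beige cells (Ppard, Nr1h3, Nr4a1) and 4 lower (Ppara, Esrra, Thra, Nr3c1). For 5 of the 7 the direction was the same by fold enrichment. The beige list is longer, and by rank itself Nr1h3 stood lower in beige cells, at 9940 against 8458 in CS. Thrb had a promoter peak in CS alone, as had 3.39% of all genes, and Nr2f2 in beige alone, as had 17.1%. Of the CS peaks of the regions, 9 of 26 (34.6%, 19.4 to 53.8%) overlapped no beige peak, a lower share than the 56.0% of all CS peaks. Of the beige peaks, 25 of 42 (59.5%, 44.5 to 73.0%) overlapped no CS peak, against 78.7% of all beige peaks. In both directions more of the receptor regions' peaks were shared than of the peaks as a whole. Of the 26 CS peaks of the regions, 9 lay at receptor promoters and 4 at promoters of other genes. The whole lists were not matched for such places, so the part of location in the difference was not tested. At q under 0.001 the CS share was 12.5% (2 of 16) and the beige share 65.9% (27 of 41). With equal numbers of best peaks they were 46.2% (12 of 26) and 53.3% (16 of 30). Shares over all peaks were not computed under these settings. The CS and beige libraries differ in source, age and culture, which cannot be told apart.

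Most Ets1 peaks of the regions lay in chromatin that was open and acetylated in Flox adipocytes. In CS, 20 of 26 (76.9%, 57.9 to 89.0%) overlapped a Flox ATAC peak and 19 (73.1%, 53.9 to 86.3%) a Flox H3K27ac peak, beside 53.4% and 64.3% of all CS peaks. For beige cells the counts were 39 of 42 (92.9%, 81.0 to 97.5%) and 37 (88.1%, 75.0 to 94.8%), beside 85.5% and 77.4% of all beige peaks. In RT, 3 of 4 and 2 of 4 overlapped them, beside 24.3% and 47.2% of all RT peaks. Every CS and beige peak at a receptor promoter lay in a Flox ATAC peak (9 of 9 and 11 of 11). All but those of Thra also overlapped Flox H3K27ac (8 of 9 and 10 of 11). The CS peaks outside open chromatin were 3 intronic peaks of Esrrg and 1 each at Nr1h3, Thrb and Nr2f2.

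**Figure D2:**
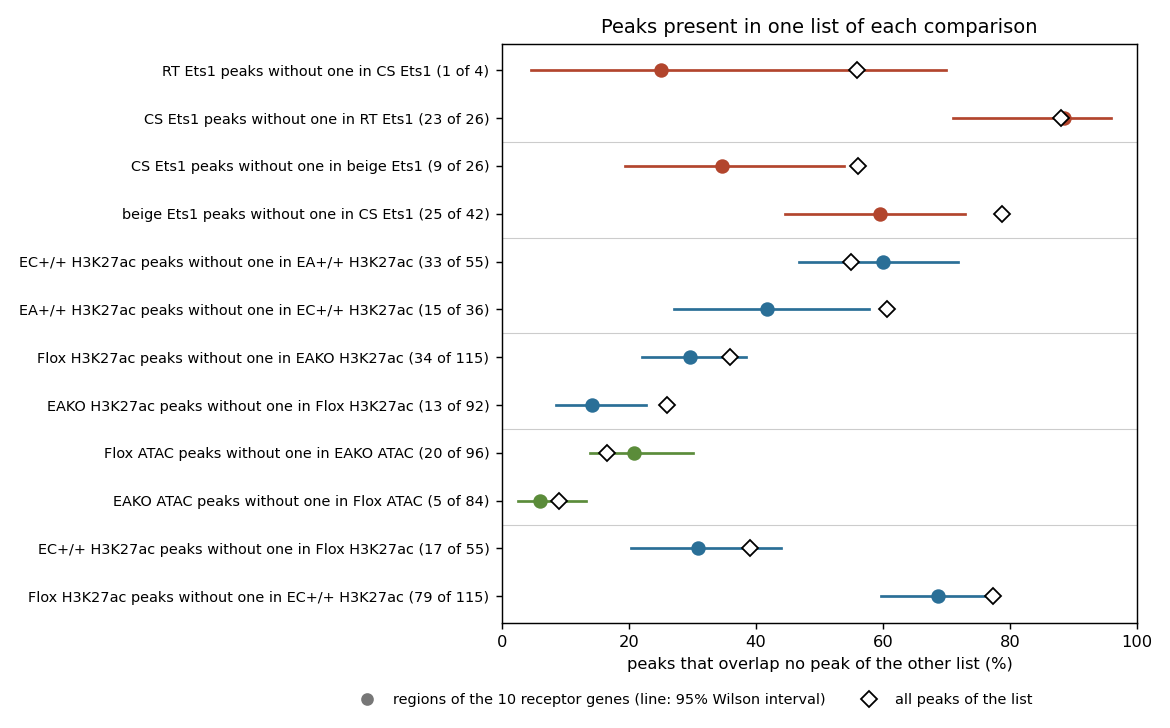
For each of the 6 comparisons, the share (%) of peaks in the 10 receptor regions that overlap no peak of the other list (filled circles, with 95% Wilson intervals for counting error), beside the share over all peaks of the list (open diamonds). The CS and beige shares of the receptor regions lie below those of their whole lists when set against each other, and the CS share against RT lies on it.

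Ppara and Ppard encode receptors for fatty acids, and Ppara drives fatty acid oxidation. Ppara (chr15:85734983-85802819, plus strand) had an Ets1 promoter peak of −log10 q 3.69 in CS and 6.64 in beige cells, at 46.2% and 50.4% of their lists, and none in RT. Its H3K27ac promoter values were 4.56 in EC+/+, 18.4 in Flox and 21.8 in EAKO, with no peak in EA+/+, and its ATAC values 87.6 in Flox and 50.7 in EAKO. Thus Ppara stood in the middle of both Ets1 lists. The strongest H3K27ac and ATAC peaks of its region lay at the neighbouring promoter of Cdpf1, where EAKO ATAC reached 140, at 0.821% of that list.

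Ppard (chr17:28232700-28301474, plus strand) rose in rank from CS to beige cells at the same promoter, from 3.76 (45.7% of the list) to 43.3 (5.88%), with summits 38 bp apart. Beyond the promoter, an intron of Ppard, chr17:28256774-28257413, carried a beige Ets1 peak of 56.7 (rank 1160, or 3.80%) and none in RT or CS. This was the highest beige peak of the receptor regions without a CS peak. The same place had H3K27ac values of 70.3 in Flox (1.91%), 52.8 in EAKO (3.11%) and 1.53 in EA+/+ (96.3%), no EC+/+ peak, and ATAC values of 90.7 in Flox and 64.9 in EAKO. It was therefore open and acetylated in adipocytes of Flox mice, while the CS adipocytes had no Ets1 peak there. The RT peak of the region lay at the Fance promoter (3.84, at 40.3%), where CS had 4.41 (38.8%) and beige cells 38.8 (6.89%). The highest CS peak of the Ppard region lay in the body of the neighbour Def6, with a −log10 q of 7.81 (15.1%), and beige cells had 16.8 (20.6%) at that site. This is not the Def6 peak with the CCGGAAG match shown above, and it had no such match. H3K27ac at the Ppard promoters was 5.06 in EC+/+ and 3.00 in EA+/+, against 27.6 in Flox and 19.2 in EAKO, and the EC+/+ and EA+/+ peaks lay at different starts, 22859 bp apart. ATAC reached 82.8 in Flox and 43.4 in EAKO.

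Nr1h3 encodes the liver X receptor α, a sterol sensor. It lies on the minus strand at chr2:91184061-91202834 and has 8 starts over 11.9 kb, the most upstream beside Acp2. Ets1 peaks were 3.24 in CS (56.9%) and 10.8 in beige cells (32.5%) at an internal start, with summits 49 bp apart, and none was called in RT. A CS peak of similar size (3.30) at the 3′ end, in the promoter of Madd, had no peak in any other list. The Acp2 side had no CS peak and a beige peak of 8.99 (38.6%), the peak with the CCGGAAG match printed above. H3K27ac and ATAC were instead highest on the Acp2 side: 9.34 in EC+/+, 38.8 in Flox and 35.8 in EAKO for H3K27ac, 153 in Flox and 102 in EAKO for ATAC. EA+/+ was highest at the internal start, with 4.16 (30.6%), against 9.25% for the EC+/+ peak.

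Esrra and Esrrg encode estrogen-related receptors, orphan receptors that with PGC-1 coactivators drive mitochondrial genes. Esrra (chr19:6910977-6921813, minus strand) had the strongest Ets1 promoter peak of the 10 genes in RT and in CS. Its −log10 q was 2.45 in RT (71.2%), 25.7 in CS (rank 162, or 1.09%) and 96.5 in beige cells (rank 434, or 1.42%). Its summit lay at −113 bp from the nearest start in RT, −220 bp in CS and −161 bp in beige cells. H3K27ac there was 54.6 in Flox (3.50%) and 22.7 in EAKO (13.0%), with summits 48 bp apart. EC+/+ had 3.80 (47.4%) and EA+/+ 4.71 (25.1%), with summits 994 and 715 bp downstream of the nearest start. ATAC was 159 in Flox (1.76%) and 112 in EAKO (2.51%). Ranked by fold enrichment these ATAC peaks stood at 23.2% and 26.0%, so the high place in those lists depended on the column used. A second Ets1 site, at the promoter of Prdx5 and Trmt112 beyond the 3′ end of Esrra, had 5.93 in CS (24.2%) and 57.7 in beige cells (3.66%), and none in RT.

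Esrrg, the longest of the genes (chr1:187608791-188214885, plus strand), had no Ets1 promoter peak in any of the 3 lists. Its 3 CS peaks (1.49, 2.58 and 2.87) and 3 beige peaks (2.56, 5.64 and 6.55) were intronic, and none overlapped between the lists. The highest beige peak coincided with H3K27ac at 11.2% of the Flox and 10.3% of the EAKO list and with ATAC of 112 in Flox and 83.1 in EAKO. At the highest CS peak the H3K27ac list of EA+/+ alone had a peak (1.98). Promoter H3K27ac was 1.90 in EC+/+ (92.9%), 8.58 in Flox and 10.8 in EAKO, and absent in EA+/+, and promoter ATAC was 23.7 in Flox (44.3%) and 9.42 in EAKO (67.1%). The 2 estrogen-related receptor genes thus stood at opposite ends, with Esrra near the top of the CS and beige lists and Esrrg without a promoter peak.

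**Figure D3:**
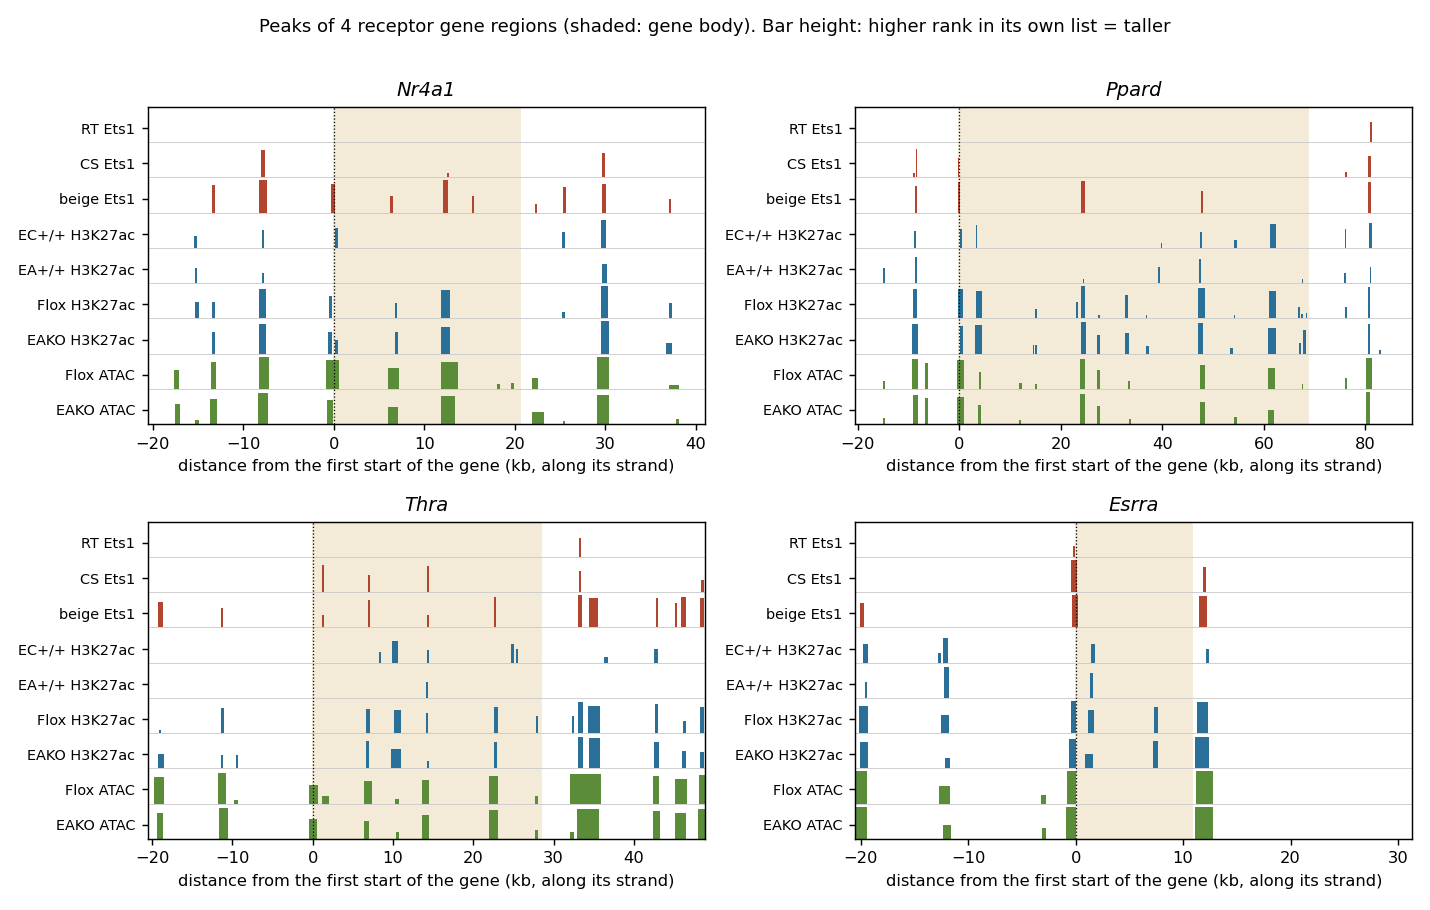
Peaks in the regions of Nr4a1, Ppard, Thra and Esrra by distance (kb) from the first annotated start along the strand of the gene, 1 row per library. Shading marks the gene body, and a taller bar means a higher rank of the peak in its own list. The upstream and internal Nr4a1 sites and the Ppard intronic site are tall in the beige row, and Thra shows no H3K27ac bar at its first start.

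Thra and Thrb encode the thyroid hormone receptors, which mediate the action of T3 on heat production. Thra (chr11:98740638-98769006, plus strand) had an Ets1 promoter peak of 6.59 in CS (20.0%) and 4.28 in beige cells (66.7%), with summits 37 bp apart, and none in RT. No promoter peak was called in any of the 4 H3K27ac lists, while ATAC promoter peaks reached 36.4 in Flox and 28.6 in EAKO. Only 5 protein-coding genes, or 0.0228%, shared this pattern over the 9 libraries, Thra included. The absence depended on the window, since the 3 kb window gave Thra a promoter peak in all 4 H3K27ac lists. At an intronic site 1371 bp downstream of the nearest start, H3K27ac was 2.98 in EC+/+ and 3.05 in EA+/+, against 7.17 in Flox and 3.20 in EAKO, and Ets1 was 6.25 in CS (22.5%) and 4.27 in beige cells (66.7%). The highest of the ATAC peaks counted at the Thra promoters lay at that intronic site, with summits 1234 and 1297 bp from a start and flanks that reached inside the 1 kb window. A lower ATAC peak, at 47.8% of the Flox and 43.8% of the EAKO list, lay at the most upstream start. At the start with the Ets1 peak, ATAC was 6.41 in Flox (83.1%) and not called in EAKO.

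Most Ets1 peaks of the Thra region were in beige cells, 12 against 5 in CS and 1 in RT. The highest, 72.3 (2.48%), lay within Nr1d1, a gene that encodes a circadian heme receptor and lies downstream of Thra on the opposite strand. RT had 3.52 (47.6%) and CS 4.43 (38.6%) at that place, so it was 1 of the 3 RT peaks of the receptor regions that CS shared.

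Thrb lies on the plus strand at chr14:17660261-18038090. Its promoter had an Ets1 peak of 5.89 in CS (24.5%) and none in beige cells or RT, and this was the highest CS peak of the receptor regions without a beige peak. Beige cells had instead an intronic peak of 9.51 (36.6%), 14470 bp downstream of the nearest start, where CS had none. The Thrb promoter carried one of the strongest H3K27ac peaks of the EC+/+ and EA+/+ lists, 24.8 (rank 175, or 0.519%) and 23.1 (rank 160, or 0.416%). In Flox it had 29.3 (9.80%) and in EAKO 10.3 (31.5%). The intronic beige site moved the other way between those lists, with 16.3 in Flox (19.2%) and 24.9 in EAKO (11.5%). ATAC was 37.5 in Flox (30.3%) and 26.7 in EAKO (32.5%), with the best peaks' summits 1904 bp apart. At the place of the CS Ets1 promoter peak, the same Flox peak stood beside a lower EAKO peak of 9.18 (68.8%).

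Nr3c1 encodes the glucocorticoid receptor (chr18:39410545-39519421, minus strand). In CS its Ets1 promoter peaks were 9.44 (10.5%) and 2.88 (61.5%), in beige cells 23.7 (13.8%) and 17.9 (19.3%), and RT had none. Each CS peak overlapped a beige peak, but the order was exchanged: the stronger peak lay at different starts in the 2 lists, with summits 961 bp apart. H3K27ac was 4.19 in EC+/+ (39.0%) and 5.51 in EA+/+ (17.9%), against 36.7 in Flox (7.10%) and 61.9 in EAKO (2.13%). Nr3c1 was the receptor gene ranked highest in the EAKO H3K27ac list, and ATAC placed it at 7.56% in Flox (104) and 7.43% in EAKO (76.8).

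Nr4a1 is an immediate early gene whose product, an orphan receptor, is induced by cAMP and adrenergic signals. It lies at chr15:101254269-101274795 on the plus strand and differed most between CS and beige cells. At the internal start the Ets1 value was 1.84 in CS, near the foot of the list (93.6%), and 108 in beige cells (rank 330, or 1.08%). At a site that lies in no protein-coding gene, with its summit at −7963 bp from the first start, the beige peak reached 133 (rank 205, or 0.671%), the highest Ets1 value of all 10 regions. CS had 6.94 (18.5%) at that site, and RT had no Ets1 peak in the Nr4a1 region. The CS promoter peak was lost at q under 0.001, which left Nr4a1 with a promoter peak in beige cells alone. The upstream site had H3K27ac of 3.72 in EC+/+ and 2.35 in EA+/+, against 28.6 in Flox and 24.6 in EAKO, and ATAC of 134 in Flox (3.81%) and 97.5 in EAKO (4.08%). By fold enrichment these ATAC peaks stood lower, at 28.6% in Flox and 20.9% in EAKO. Promoter H3K27ac was 4.08 in EC+/+, 21.3 in Flox and 16.8 in EAKO, with none in EA+/+; the EC+/+ peak lay at the most upstream start and the others at the internal start. Of the 10 beige peaks of the region 7 overlapped no CS peak, and all 3 CS peaks overlapped a beige peak.

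Nr2f2 encodes COUP-TFII, an orphan receptor of stromal and venous endothelial cells as well as of fat (chr7:70351944-70366735, minus strand). It had no Ets1 promoter peak in CS and one of 9.11 in beige cells (38.2%), whose summit lay at −1121 bp from a start with its flank inside the window. The CS peak of its region, 2.14 (83.8%), had its summit at −2345 bp, outside the window, and the 3 kb window removed the difference. H3K27ac was 3.77 in EC+/+ (47.8%) and 6.62 in EA+/+ (11.5%), against 16.6 in Flox (18.8%) and 15.9 in EAKO (20.1%). ATAC was 74.5 in Flox and 45.1 in EAKO.

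**Figure D4:**
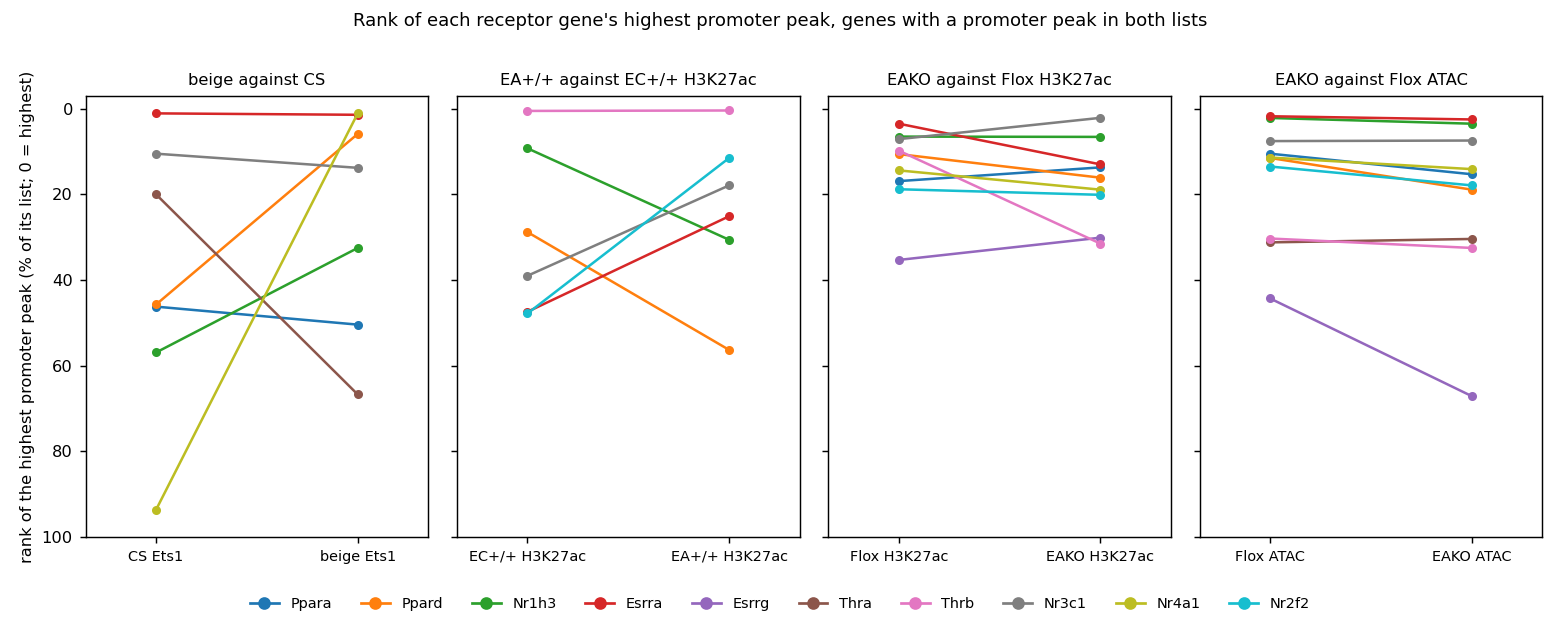
Rank of the highest promoter peak of each receptor gene as a percent of its list (0 is the highest, at the top) in both libraries of 4 comparisons, for the genes with a promoter peak in both. Nr4a1 and Ppard climb and Thra descends from CS to beige, and Thrb falls from 9.80% in Flox to 31.5% in EAKO for H3K27ac. The ATAC lines shift by 7.35 percentage points or less except for Esrrg. A line can join different sites: in ATAC the summits of Nr4a1 lay 12828 bp apart and those of Thrb 1904 bp apart.

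In EA+/+ fewer receptor promoters carried H3K27ac than in its control. EC+/+ had 9 of 10, all but Thra, beside 52.0% of all genes, and EA+/+ had 6, beside 50.4%. With the starts of protein-coding transcripts only, EC+/+ had 8, without Nr2f2, and EA+/+ had 6. Ppard was counted in both lists, though none of its promoter peaks overlapped between them. Ppara, Esrrg and Nr4a1 had a promoter peak in EC+/+ alone, a pattern of 8.89% of all genes, and none had it in EA+/+ alone, as had 7.33%. The peaks without a counterpart were of middle or low rank in EC+/+, with −log10 q of 4.56 for Ppara (34.8%), 1.90 for Esrrg (92.9%) and 4.08 for Nr4a1 (42.9%). Esrrg left this group at q under 0.001, while cutting both lists to 33713 peaks kept all 3. In the regions 33 of 55 EC+/+ peaks (interval 46.8 to 71.9%) had no EA+/+ peak, beside 54.9% of all. In the reverse direction 15 of 36 (41.7%, 27.1 to 57.8%) had no EC+/+ peak, beside 60.7% of all EA+/+ peaks. Peaks in the regions thus numbered 55 in EC+/+ and 36 in EA+/+, although the EA+/+ list as a whole was the longer (38484 against 33713). Thra and Thrb held much of the gap, with 7 and 6 peaks in EC+/+ against 1 each in EA+/+. Among the 6 genes with a promoter peak in both, 4 ranked higher in EA+/+ (Esrra, Thrb, Nr3c1, Nr2f2) and 2 lower (Ppard, Nr1h3), also when ranked by fold enrichment; for the latter pair the highest peaks lay at different starts. The highest peaks without a counterpart were both between genes near Nr2f2, 6.09 in EC+/+ and 8.30 in EA+/+.

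Between Flox and EAKO the set of receptor promoters with H3K27ac was identical: 9 of 10 in each, all but Thra, beside 63.9% and 60.5% of all genes. No gene had a promoter peak in Flox alone (5.18% of all genes) or in EAKO alone (1.75%). By rank as a percent of the list, 3 of 9 genes stood higher in EAKO (Ppara, Esrrg, Nr3c1) and 6 lower. The 6 were Ppard, Nr1h3, Esrra, Thrb, Nr4a1 and Nr2f2, and the directions by fold enrichment were the same. The EAKO list is shorter, and by rank itself Nr1h3 (5651 in Flox, 4912.5 in EAKO) and Nr2f2 (16329 and 15036) stood higher in EAKO. The 2 widest moves were those of Thrb, from 9.80% to 31.5%, and Esrra, from 3.50% to 13.0%. For Nr1h3 the ranks were 6.51% and 6.58%. In the regions 34 of 115 Flox peaks (29.6%, 22.0 to 38.5%) had no EAKO peak, beside 35.9% of all Flox peaks. Of the EAKO peaks 13 of 92 (14.1%, 8.45 to 22.7%) had no Flox peak, beside 26.0% of all EAKO peaks. Esrrg and Thrb held 18 of the 34 Flox peaks without a counterpart. The highest were of middle rank, an intronic peak of Nr3c1 in Flox (10.5, at 29.6%) and an exonic peak of Ppard in EAKO (10.8, at 30.4%).

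Open chromatin was called at all 10 receptor promoters in Flox and in EAKO, beside 67.7% and 66.0% of all genes. None was open in Flox alone (2.54% of all genes) or in EAKO alone (0.784%). In the regions 20 of 96 Flox peaks (20.8%) had no EAKO peak, beside 16.6% of all, and 5 of 84 EAKO peaks (5.95%, 2.57 to 13.2%) had no Flox peak, beside 8.98%. The strongest of these were intronic peaks of Esrrg, 12.1 in Flox and 9.33 in EAKO, both in the lower part of their lists (65.1% and 67.8%). By −log10 q, Esrra, Nr1h3 and Nr3c1 were the 3 highest receptor promoters in both lists. By fold enrichment Nr1h3 was highest in both (1.42% and 2.58%), while Nr3c1 stood at 43.0% in Flox and 33.0% in EAKO, below Ppara (13.6% and 20.4%). The Nr1h3 peak was the one shared with the promoter of Acp2. At the internal start of Nr1h3 the ATAC −log10 q was 62.0 in Flox (17.4%) and 34.0 in EAKO (25.4%). As a percent of the list, promoter ranks were lower in EAKO for 8 of 10 genes. The shift ran from 0.748 percentage points for Esrra to 22.8 for Esrrg. Among the 8, Thrb had a rank of 26984 in Flox and 26964 in EAKO, so its rank itself was almost unchanged. For Thra the rank percent fell by 0.731 and for Nr3c1 it fell by 0.126, which is a higher place. For 8 of the 10 the direction was the same by fold enrichment. At Nr4a1 the highest peaks were different sites, 12828 bp apart: at the most upstream start the rank went from 11.4% in Flox to 28.5% in EAKO, and at the internal start from 20.4% to 14.1%.

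The control libraries, Flox and EC+/+, were set side by side for H3K27ac, with lists of 86834 and 33713 peaks. Both held a promoter peak at the same 9 receptor genes, and none was in EC+/+ alone (2.62% of all genes) or in Flox alone (14.5%). Of the Flox peaks of the regions 79 of 115 (68.7%, 59.7 to 76.5%) had no EC+/+ peak, beside 77.3% of all Flox peaks. In the other direction 17 of 55 (30.9%, 20.3 to 44.0%) had no Flox peak, beside 39.1% of all EC+/+ peaks. As a percent of the list, 8 of 9 genes ranked higher in Flox, and Thrb ranked lower by 9.28 percentage points. Among the 8, the smallest move was that of Nr1h3, from 9.25% in EC+/+ to 6.51% in Flox. The widest was that of Esrrg, from 92.9% to 35.3%. The Flox list is much longer, which lowers the percent of a given rank. By rank itself Ppara (11728 in EC+/+, 14636 in Flox), Nr1h3 (3119 and 5651) and Nr2f2 (16120 and 16329) stood lower in Flox too. For Ppara, Ppard, Esrra, Nr4a1 and Nr2f2 the highest promoter peaks of these lists did not overlap, so the ranks belong to different sites, 61671 bp apart at Ppard and 12366 bp apart at Nr4a1.

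**Figure D5:**
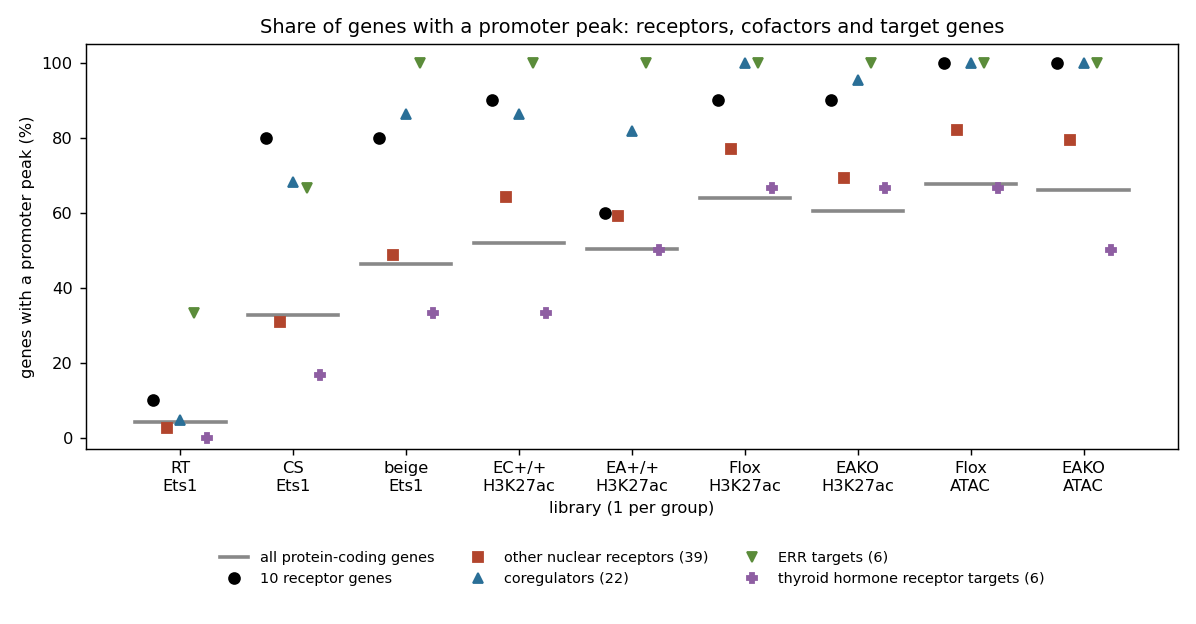
Share (%) of genes with a promoter peak in each library for the 10 receptor genes, 39 other nuclear receptors, 22 coregulators, 6 target genes of estrogen-related receptors (ERR) and 6 of thyroid hormone receptors. Grey lines mark all protein-coding genes: coregulators lie above them in CS and later columns, other receptors close to them in the Ets1 columns, and thyroid hormone targets below them in 7 of 9 columns.

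Other genes of the same system were counted from textbook lists. Of 39 other nuclear receptors, 1 had an Ets1 promoter peak in RT and 12 in CS (30.8%), with 19 in beige cells (48.7%), near the shares of all genes given above. Nr1d2, a circadian repressor and paralogue of Nr1d1, led them in CS (19.6), followed by Nr2c2 (18.5) and Nr1h2 (8.65). In Flox H3K27ac 30 of the 39 had a promoter peak, led by Nr1d2 (151) and the retinoid X receptors Rxra (110) and Rxrb (75.1). Of 22 coregulators, 1 had an Ets1 promoter peak in RT and 15 in CS (68.2%), with 19 in beige cells (86.4%). The arginine methyltransferase Carm1 had the highest CS value (43.2), then the acetyltransferase Crebbp (11.4) and Ncoa4 (9.36). All 22 had an H3K27ac promoter peak in Flox and 21 in EAKO, led in Flox by Ncoa4 (129), Carm1 (88.1) and Hdac3 (76.8).

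Target genes were counted in short lists of 6 or 10 genes, to be read beside the shares of all genes (RT 4.06%, CS 32.7%, beige 46.4%). ERR targets, genes of mitochondrial metabolism, had an Ets1 promoter peak at 2 of 6 in RT and 4 in CS, with all 6 in beige cells. Acadm led in CS, followed by Cycs (13.0) and Idh3a (4.03), and Cycs (124), Acadm (107) and Idh3a (95.4) were highest in Flox H3K27ac. PPAR targets had it at 1, 5 and 8 of 10, with Cpt1a (8.92) and Pdk4 (6.04) among those in CS, and Hadha (126) and Pdk4 (35.1) among those in Flox H3K27ac. Glucocorticoid receptor targets had it at 0, 5 and 6 of 6, led by Sgk1 (6.86), Per1 (6.58) and Fkbp5 (4.84) in CS, and by Sgk1 (57.3), Per1 (29.9) and Dusp1 (27.7) in Flox H3K27ac. LXR targets had it at 0, 3 and 3 of 6, with Mylip (8.34), Srebf1 (3.09) and Abca1 (2.87) in CS, and Srebf1 (47.5), Mylip (25.3) and Scd1 (19.6) highest in Flox H3K27ac. Thyroid hormone receptor targets had it at 0, 1 and 2 of 6. Klf9 was the CS gene (5.20), and Klf9 (29.5), Me1 (29.4) and Dio2 (5.00) led in Flox H3K27ac. Between EC+/+ and EA+/+, H3K27ac promoter peaks went from 5 to 3 of 6 glucocorticoid receptor targets and from 8 to 9 of 10 PPAR targets. They went from 4 to 5 of 6 LXR targets and from 2 to 3 of 6 thyroid hormone receptor targets. All 6 ERR targets had such a peak in both lists. The shares of all genes were 52.0% in EC+/+ and 50.4% in EA+/+.

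The 10 receptor genes showed 7 patterns of presence and absence over the 9 libraries. Ppard, Nr1h3 and Nr3c1 had a promoter peak everywhere but RT, as had 4602 of the 21938 genes, among them 7 other nuclear receptors including Nr1d2, Nr2c1, Nr3c2, Nr4a2 and Nr6a1. Ppara and Nr4a1 lacked it in RT and EA+/+ (452 genes, 2.06%, Rara included). Esrra had it in all 9, as had 676 genes (3.08%) and of the other receptors Nr2c2. Nr2f2 lacked it in RT and CS (1961 genes, 8.94%), as did Nr2f1, Nr4a3, Rora, Rxrg and Vdr. Thrb lacked it in RT and beige cells (357 genes, 1.63%, with Rorb). Esrrg had it in 5 libraries (326 genes, 1.49%, Nr1h4 and Rarb included), and Thra shared its pattern with none of the other receptors.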

How the data were processed

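Ets1 and H3K27ac CUT&Tag and ATAC libraries of mouse fat were used as 9 peak lists, 1 library per group. The authors trimmed reads with trimmomatic, aligned them with BWA to mm10 and called peaks with MACS2 at q under 0.05; SAMtools, deepTools and DESeq2 stand in the submitters' notes too, and any control library given to MACS2 was not given in the sources used here. The lists deposited by the authors hold, for every peak, a score, the fold enrichment as a ratio, the p-value and the q-value as −log10, and the summit position. These values depend on depth and background, so they were ranked within a list (1 being the highest, ties at their mean rank) and never divided between lists. No tests were run, since 1 library per group gives no replicate error. Wilson 95% intervals cover counting error only.

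Starts came from GENCODE M21 (93513 starts of 21938 protein-coding genes). A promoter peak overlapped by at least 1 bp a window of 1 kb on each side of a start, and peaks of different lists were shared if they had 1 bp or more in common. Sequences were read from GRCm38.p6 with samtools 1.23.1 and pysam 0.24.0. Scripts in Python 3.11.15 with SciPy 1.17.1 were tested on simulated lists. The receptor genes and the gene lists were chosen with earlier results of these data known. Named were all 10 receptor genes, at most 3 genes of each related list by −log10 q in CS and in Flox H3K27ac, other receptors with the same pattern of peaks (at most 5), and the highest peaks of each region and comparison. Marker genes are given as counts, with Adipoq and Cidec named after their values were seen. Some genes that this rule would name are not reported here. Alternatives were a 3 kb window, protein-coding transcripts' starts, q under 0.001, equal numbers of best peaks, a larger overlap relative to the shorter peak, 50 kb flanks and ranks by fold enrichment.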

Additional observations from a re-analysis of the deposited data

How the results depend on the processing

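No paired analysis was possible because each group has 1 library and no result comes from a test. Of 27 repeats of the promoter counts 26 stayed within 1.5 times, as did 31 of 36 for genes with a peak in one library alone, and 41 of 48 repeats of the single-peak shares stayed within the counting interval. At q under 0.001 RT held 0 receptor promoters and 2 genes (Nr2f2, Nr4a1) were in beige alone against CS. In Flox alone against EC+/+ there was 1 (Esrrg). The single-peak share was 0% in RT against CS (0 of 2), 12.5% in CS against beige (2 of 16) and 20.4% in Flox against EAKO H3K27ac (19 of 93). At that threshold 2 of 2 RT peaks (100%) and 15 of 16 CS peaks (93.8%) lay in Flox ATAC. Flox H3K27ac held 14 of the 16 CS peaks (87.5%). Shares over all peaks were not computed at that threshold. With equal numbers of best peaks 3 genes were in CS alone against RT and 3 in CS alone against beige (Ppara, Thra, Thrb), and the shares were 75.0% for RT against CS, 21.6% for Flox against EAKO H3K27ac, 56.4% for EC+/+ against Flox and 50.0% for Flox against EC+/+. The 3 kb window left 0 genes in beige alone. The setting with equal numbers shortens the longer list by design, and the causes of the moved values were not tested. Ranked by fold enrichment, 30 of 70 promoter peaks moved by over 10% of the list, the widest being Nr4a1 in EAKO ATAC (45.7 percentage points). The lists were not scaled to read totals, so every statement on an absent peak rests on the authors' calls at their depth.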
